A study of Homo sapiens with 18 samples.

Results

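QKI (quaking) binds RNA through a single KH domain of the STAR type and prefers the short motif ACUAAY. In introns it acts on the choice of exons, and in 3′ untranslated regions on the stability of mRNAs. It is known as a splicing regulator of muscle and heart. In eCLIP, ultraviolet light links proteins to the RNA they touch, and an antibody then recovers 1 protein with its bound RNA fragments (the immunoprecipitate, IP). Their sequences are set against an input library of the same fragment size.

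The results below concern stretches of RNA with reproducible QKI peaks at all 3 sampled days of cardiomyocyte differentiation. They were found by joining the peaks of the authors' 3 lists of reproducible peaks, 1 per day, wherever peaks overlapped or touched on the same strand. Of 7018 footprints made in this way, 401 (5.71%) held at least 1 peak from each of the lists of day 0, day 4 and day 8. These 401 footprints were chosen by the authors' peak calls of all 3 days, so their enrichment at each day is a description and carries no test.

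The cells were HUES6, an established human embryonic stem cell line, with no genetic change named in the labels. Day 0 cells were pluripotent cells kept in FTDA medium. Day 4 cells were cardiac progenitors, grown first with CHIR (a GSK3 inhibitor) and BMP4, then in TS medium and then with C59 (an inhibitor of Wnt secretion). Day 8 cells had gone through the same steps, followed by fresh C59 and then TS medium alone, and were crosslinked once beating was seen. Each day had 3 QKI IP libraries made with 1 anti-QKI antibody and 3 input libraries. The inputs entered only through the authors' fold of IP over input. No label states that replicate libraries were grown as separate cultures, so p-values measure only the spread between these libraries, which may be technical. The files held QKI clusters and no expression, so the cells could not be checked against markers, and read depth was unknown. A change in cluster cover cannot here be told apart from a change in the RNA's level.

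A passing cluster is one with an authors' fold of at least 4 over input and p at or below 0.001. The day 0 libraries held 12695 to 15508 passing clusters, the day 4 libraries 3030 to 7775 and the day 8 libraries 3726 to 10966.

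The 401 footprints made up a small part of the day 0 list and most of the day 4 list. They held 1025 of the 7778 day 0 peaks (13.2%, Wilson 95% interval 12.4% to 13.9%), 605 of the 947 day 4 peaks (63.9%, 60.8% to 66.9%) and 627 of the 1576 day 8 peaks (39.8%, 37.4% to 42.2%). These intervals cover counting error only. Counted as footprints, they were 6.17% of those with a day 0 peak, 56.7% of those with a day 4 peak and 33.5% of those with a day 8 peak. They also held many of the peaks with the smallest p-values. Of the peaks whose −log10 p stood at the authors' cap of 400, they held 277 of 403 at day 0, 55 of 56 at day 4 and 85 of 92 at day 8. These capped peaks lay in only 47, 20 and 26 of the 401 footprints, so they do not describe the 401 as a whole. Clusters of each library were also ranked by p, with ties, such as those at the cap, ordered by log2 fold. Among the first 100 in each library, 98 to 99 lay in these footprints in the day 0 libraries. The range was 81 to 97 at day 4 and 74 to 87 at day 8. Of all passing clusters, 6.85% to 8.23% lay in them at day 0, 8.53% to 19.1% at day 4 and 6.26% to 16.3% at day 8.

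The footprints were found in single libraries as well as in the merged lists. Of the 401, 373 overlapped a passing cluster in 9 of 9 libraries, 18 in 8, 2 in 7, 6 in 6 and 2 in 5. Every footprint passed in at least 1 library of each day. In the 48 cases where a footprint had no passing cluster in a library, that library still listed a weaker cluster at the position. Such cases numbered 11 in day 8 replicate 2, 9 in day 4 replicate 3 and 2 to 7 in each of the other 7 libraries. For comparison, 67 of 335 footprints (20%) of days 0 and 8 passed in 9 of 9 libraries, as did 65 of 196 (33.2%) of days 0 and 4. No test was made of these differences, since the lists were built from the same libraries.

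The peaks of the 3 lists mostly shared nucleotides within a footprint. In 399 of 401 footprints at least 1 nt lay under peaks of all 3 lists. The joining rule did not strictly require this, but it joined these same peaks by overlap. Much of the sharing is therefore built in, and it is a description only. The shared stretch had a median length of 70 nt (quartiles 56 and 91), and its median share of the footprint was 66.3%. In 72 footprints the shared nucleotides fell into more than 1 stretch. The peaks with the highest fold at each day also shared a nucleotide in 349 footprints. In the other 52 they did not, and these were wider, with a median of 226 nt against 105 nt. The 2 footprints without a shared nucleotide were weakly enriched. They were chr6:31508883-31508956 on the minus strand and chr19:49993224-49993245 on the plus strand, with log2 folds of 2.09 to 3.04, and they passed in 6 and 5 libraries.

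Footprints of all 3 days were wider than those of 1 day. Their median width was 111 nt (quartiles 83 and 170, range 15 to 541), against 102 nt for days 0 and 8, 90 nt for days 0 and 4, and 78 nt for day 0 only. Joining peaks of 3 lists widens a footprint by construction, so this difference is not a finding about QKI. Width varied widely among them, with 24 of at most 50 nt and 25 of at least 300 nt.

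Around the centre of the shared stretch, flanking positions lay under passing clusters more often in day 0 libraries than in later ones. Each of the 399 footprints with a shared stretch was aligned on the centre of that stretch and read 5′ to 3′. The centre lies at nucleotides that peaks of all 3 days had to cover, so high cover there is built in and is no result to set against the flanks. At the centre, 97.7% ± 0.880 of them (SD, n = 3 libraries) lay under a passing cluster at day 0, 96.4% ± 1.01 at day 4 and 96.3% ± 0.522 at day 8. At 50 nt upstream the values were 48.7% ± 1.29, 36.2% ± 8.93 and 37.7% ± 1.81. At 50 nt downstream they were 51.0% ± 0.949 at day 0 and 35.7% ± 8.90 at day 4, with a mean of 38.2% at day 8 (libraries from 34.1% to 42.1%). At 100 nt downstream they were 27.2% ± 0.631, 16.2% ± 4.02 and 19.5% ± 1.61. Every day 0 library was above every library of the later days at each of these distances from the centre. Positions were counted whether or not they lay inside the footprint. The median width of the 401 was 111 nt, so the flanks include sequence outside many footprints and can hold neighbouring clusters. The day 0 libraries also had the most passing clusters, and the part this played was not tested.

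**Figure D1:**
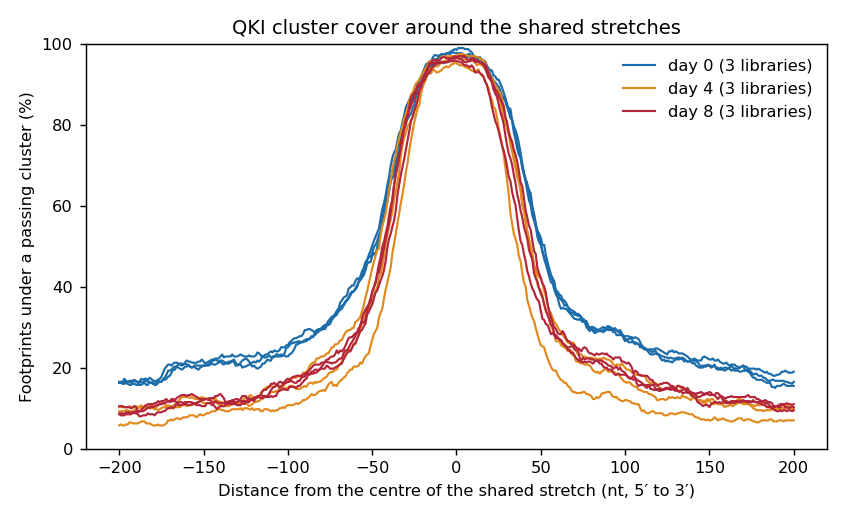
Share of 399 QKI footprints with a passing cluster at a position (percent) against its distance from the centre of the stretch shared by the 3 lists (nt, 5′ to 3′), 1 line per library. Positions outside the footprint are counted too. The centre is high by the choice of alignment point, and the 3 day 0 libraries lie above the rest at 50 and 100 nt on either side.

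The most strongly enriched footprints came from scattered loci. They were ranked by the lowest of their 3 authors' log2 folds, 1 per locus, a locus being all such footprints within 20 kb on a strand. Folds are the authors' values within each list and are not compared between days. The first was chr17:18965361-18965443 on the plus strand, with log2 folds of 10.50, 10.72 and 9.33 in the day 0, day 4 and day 8 lists. It lies at genes of U3, the small nucleolar RNA that guides early cleavage of the ribosomal RNA precursor. U3 has near-identical gene copies, so which copy the reads came from is uncertain. Its highest fold per library ran from 10.20 to 10.82 at day 0, 10.07 to 11.23 at day 4 and 8.56 to 9.97 at day 8. Its cover was nearly the same in all libraries, with 78 to 81 of 83 nt at day 0, 80 to 82 at day 4 and 74 to 76 at day 8.

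Next came 360 nt at chr22:27067237-27067596 on the plus strand (log2 folds 10.95, 8.26 and 9.09), described below. Then followed a short footprint at chr3:96327728-96327761 on the minus strand (7.63, 8.40 and 9.28). Its 34 nt were covered almost whole everywhere, with 33 or 34 nt in each of the 9 libraries. The fourth was the widest of all 401, with 541 nt at chr3:197895612-197896152 on the plus strand (8.80, 7.61 and 7.70). Another pair of short footprints was among the first 10, namely 40 nt at chr17:39874406-39874445 on the plus strand (7.58, 8.93 and 8.73) and 37 nt at chr11:112223349-112223385 on the minus strand (7.34, 9.04 and 8.29). Both were covered by at least 36 nt in every library. The remaining 4 were chr9:86584836-86584969 (minus; lowest log2 fold 7.51), chr6:10787262-10787541 (plus; 7.50), chr15:63357342-63357639 (plus; 7.43) and chr9:14654712-14654806 (minus; 7.37).

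**Figure D2:**
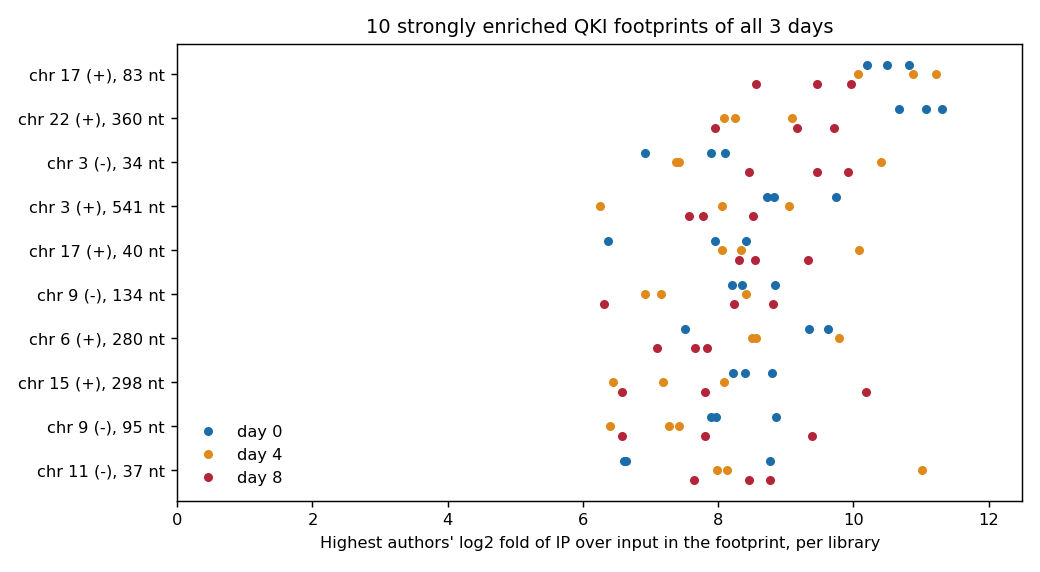
Highest authors' log2 fold of IP over input among passing clusters in each library (points, 3 per day) for the 10 footprints ranked first by the lowest of their 3 folds, 1 per locus. The lowest of the 90 points is at 6.26, and the points of 1 day spread over up to 3.61 log2 units within a footprint.

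Over all 401 footprints the lowest of the 3 folds had a median of 5.02 on the log2 scale. It was at least 16-fold in 322 footprints and at least 64-fold in 74. The weakest ones sat at the 4-fold limit. They were chr13:107210990-107211050 on the minus strand (log2 fold 2.06, in the day 8 list), chr11:75115468-75115531 on the plus strand (2.06, day 0) and chr17:7480132-7480194 on the plus strand (2.07, day 0). Each of these passed in 6 of 9 libraries. Just outside the rule were footprints absent from 1 list although all 3 libraries of that day passed there. The minus-strand footprint chr7:104645800-104645913 was absent from the day 8 list. Its best day 8 log2 fold was 7.86, with 3.88 in the lowest library. Plus-strand chr10:97902989-97903158 and chr1:164664024-164664117 were absent from the day 4 list. Their best day 4 log2 folds were 7.77 and 7.18, with 3.51 in the lowest library of each. Of the 579 footprints present in exactly 2 lists, 136 (23.5%) passed in 3 of 3 libraries of the third day, so absence from a list is not absence of QKI signal.

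The footprints lay on 23 nuclear chromosomes and on the mitochondrial genome, and 60.1% were on the plus strand, against 54.0% of all 7018 footprints. They formed 301 loci. Of these, 236 held 1 footprint, 48 held 2, 12 held 3, 3 held 4 and 2 held more. The 100 neighbouring pairs within loci were separated by a median of 327.5 nt, and 28 of them by at most 100 nt. Within 1 kb, 59.4% of the footprints had another reproducible footprint of any day on the same strand. That share was 61.5% for footprints of days 0 and 8, 46.9% for days 0 and 4 and 44.0% for day 0 only, and it was not tested.

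The fullest locus lay on the plus strand of the mitochondrial genome, with 15 footprints. Of the 26 mitochondrial footprints in the 3 lists, 17 (65.4%) were present at all 3 days, 15 on the plus strand and 2 on the minus strand. They were modestly enriched, with a lowest-of-3-days log2 fold of 2.25 to 6.07 (median 3.56), and 12 of the 17 passed in 9 of 9 libraries. The widest and richest in peaks was chrM:13611-13822, with log2 folds of 6.16, 5.77 and 5.81. It was covered by 207 to 210 of its 212 nt at day 0, 203 to 212 at day 4 and 206 to 208 at day 8. The days overlapped there. The log2 difference in cover was 0.00 ± 0.02 (SE) for day 4 against day 0 and -0.01 ± 0.02 for day 8 against day 0 (limma adjusted p = 0.871 and 0.688). None of the 17 was called between any pair of days by the limma test described below. Their log2 differences ran from -0.82 to 1.12 for day 4 against day 0 and from -1.20 to 0.30 for day 8 against day 0 (lowest limma adjusted p = 0.226 and 0.109).

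The next locus by number of footprints lay at chr5:164824-167095 on the plus strand, with 6. There each footprint held 1 peak in the day 4 list and 1 in the day 8 list, and 1 to 6 in the day 0 list. At chr15:63356155-63362084 on the plus strand, 4 footprints held 58 peaks. Another 4 lay at chr6:10784553-10794174 on the plus strand, with 38 peaks.

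Outside the mitochondrial genome the most peaks, 170, fell in 4 footprints at chr22:27067237-27069733 on the plus strand, the locus of the long noncoding RNA MIAT. Of these peaks 133 were from the day 0 list, 27 from day 4 and 10 from day 8. All 4 footprints passed in 9 of 9 libraries, while less of the locus was covered at the later days. Of the 2497 nt of the locus, 1855 lay under passing clusters of every day 0 library, 1068 under those of every day 4 library and 733 under those of every day 8 library. Per library, 1909 to 1958 nt were covered at day 0, 1203 to 1423 at day 4 and 818 to 1004 at day 8, with no overlap between days. Another 15 footprints of day 0 only and 2 of days 0 and 4 lay inside the same span.

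Within the MIAT footprints cover was lower at day 8 than at day 0 in all 4. At chr22:27067925-27068258 the libraries covered 334, 329 and 334 of 334 nt at day 0, then 296, 290 and 300 at day 4, and 175, 245 and 221 at day 8. The days did not overlap. The log2 difference of day 8 from day 0 was -0.63 ± 0.11 (SE, limma adjusted p = 0.00194). For chr22:27067237-27067596 it was -0.58 ± 0.11 (limma adjusted p = 0.00345), for chr22:27068850-27068948 it was -0.74 ± 0.16 (0.00608) and for chr22:27069276-27069733 it was -0.30 ± 0.08 (0.0168). Between day 4 and day 0 none of the 4 was called by the same test (limma adjusted p = 0.114 to 0.228). With equal numbers of clusters per library, a limit described below, the differences at chr22:27067237-27067596, chr22:27067925-27068258 and chr22:27069276-27069733 kept their size but lost the call (limma adjusted p = 0.173, 0.0883 and 0.856). The call at chr22:27069276-27069733 also ended without day 0 replicate 2 or 3 (0.0506 and 0.0504) and when only footprints passing in 9 of 9 libraries were fitted (0.0522), and that at chr22:27068850-27068948 held under 18 of 18 alternatives.

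**Figure D3:**
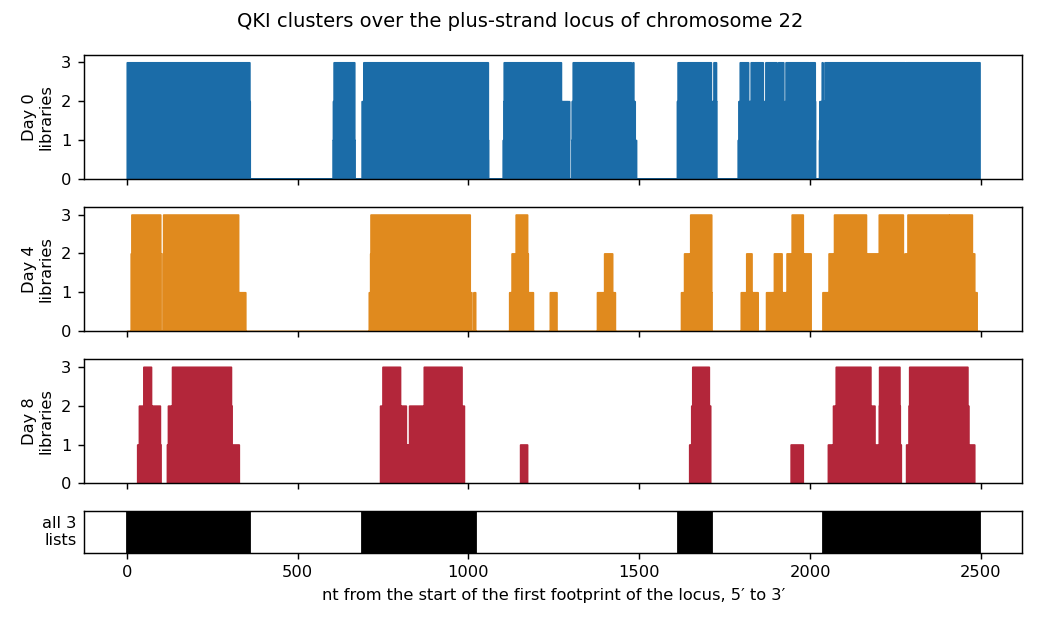
Number of libraries (0 to 3) with a passing cluster at each nucleotide of the 2497-nt MIAT locus on chromosome 22, by day, against the distance from the start of its first footprint (nt, 5′ to 3′). Black blocks mark the 4 footprints present in all 3 lists, and the nucleotides covered in 3 of 3 libraries number 1855 at day 0, 1068 at day 4 and 733 at day 8.

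How much of each footprint QKI clusters covered was then compared between days. The measure was the number of nucleotides under passing clusters in each library. The choice of footprints did not use this number, but it used peaks made from the same libraries and required cover at every day. Calls among the 401 are therefore partly limited by the choice, and their shares against all footprints are a description. The measure was fitted with limma on log2(nt + 10) over all 7018 footprints and adjusted by Benjamini-Hochberg. The footprint's edges are set by whichever day's peaks reached farthest. Over the 401 footprints the median library covered 95 to 99 nt at day 0, 74 to 90 at day 4 and 81 to 90 at day 8. As a share of the footprint this was 93.8% ± 0.452 at day 0 (SD, n = 3), 81.4% ± 7.10 at day 4 and 82.9% ± 3.69 at day 8.

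Cover of most of the 401 footprints was not called different between days. In all, 301 were called in no pair of days. At day 4, 59 (14.7%) were covered less than at day 0 and 2 (0.499%) more, against 45.6% and 0.826% of all 7018 footprints. At day 8, 64 (16%) were covered less than at day 0 and 4 (0.998%) more, against 47.1% and 4.69%. Between the later days 8 (2.00%) were covered more at day 8 and 1 (0.249%) less, against 3.98% and 0.670%. The background holds 5564 footprints of the day 0 list alone, which by definition have no peak in the later lists. Lower cover at the later days is favoured there by the choice. The median log2 difference over the 401 was -0.16 for day 4 against day 0, -0.13 for day 8 against day 0 and 0.00 for day 8 against day 4. Over all 7018 these medians were -2.05, -2.07 and 0.00. That contrast did not appear among footprints passing in 9 of 9 libraries, 549 in all, of which 373 belong to the 401. This requirement leaves out every footprint without cover at a later day, so small differences are favoured there by the choice. In the fit of these 549 the medians were -0.17, -0.16 and 0.00, against -0.16, -0.13 and 0.00 for the 373. The 100 footprints called in some pair were wider than the rest, with a median of 183.5 nt against 98 nt.

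The balance of directions moved with the number of clusters per library. With the 3030 clusters of smallest p in each library, 24 footprints were covered more and 20 less at day 4 than at day 0, against 1.98% and 6.65% of all footprints. For day 8 against day 0 these numbers were 26 and 27, against 7.31% and 9.16%. For day 8 against day 4 they were 9 and 1, against 4.87% and 1.44%. Under that limit 346 to 366 of the 401 were still covered at all in the day 0 libraries, and 384 to 399 in the later ones, so part of the higher calls is built in by the limit. The median over all 7018 footprints became 0.00, while those of the 401 stayed at -0.11 and -0.10 for day 4 and day 8 against day 0. Of the calls above, 18 of the 59 lower at day 4, 26 of the 64 lower at day 8 and 7 of the 8 higher at day 8 than at day 4 were also made under this limit. Single libraries counted too. The 59 calls became 30, 35 and 37 without day 0 replicate 1, 2 and 3, and the 64 became 39 without day 0 replicate 1. The 2 higher at day 4 than at day 0 became 1 without day 0 replicate 3. The 8 became 5 without any 1 of the day 0 libraries, 15 without day 4 replicate 2 and 4 without day 8 replicate 3. The 1 lower at day 8 than at day 4 became 7 without day 4 replicate 1, 3 without day 8 replicate 1 or 3, 2 without day 8 replicate 2, and 0 without any 1 of the day 0 libraries or day 4 replicate 2. At an unadjusted limma p under 0.05 those 0 counts were 13, 13, 13 and 11.

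At several footprints cover was lowest at day 4. The clearest was chr13:113886592-113886768 on the plus strand. Its libraries covered 176, 175 and 177 of 177 nt at day 0, 69, 78 and 59 at day 4, and 161, 144 and 142 at day 8. The days did not overlap. Cover was lower at day 4 than at day 0 by a log2 difference of -1.25 ± 0.10 (SE, limma adjusted p = 1.63e-05) and higher at day 8 than at day 4 by 1.02 ± 0.10 (limma adjusted p = 0.000463). The missing part was mostly 1 stretch toward the 3′ end. From 113886702 to 113886767, 66 nt lay under clusters in 3 of 3 day 0 libraries and in 0 of 3 at day 4, and 61 of them were covered again in 3 of 3 at day 8.

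A footprint in the QKI gene itself also had its lowest cover at day 4. At chr6:163986242-163986438 on the plus strand, 170, 183 and 161 of 197 nt were covered at day 0, 68, 91 and 88 at day 4, and 151, 176 and 138 at day 8. The day 4 libraries were below all others, and those of days 0 and 8 overlapped. The log2 difference was -0.98 ± 0.13 for day 4 against day 0 (limma adjusted p = 0.000423) and 0.84 ± 0.13 for day 8 against day 4 (limma adjusted p = 0.00821). The latter call held under 16 of 18 alternatives. It ended with every listed cluster (0.55, limma adjusted p = 0.277) and for clusters of at least 8-fold (0.63, limma adjusted p = 0.371). Again the loss was toward the 3′ end. From 163986360 to 163986424, 65 nt were covered in 3 of 3 day 0 libraries and in 0 of 3 at day 4, and 51 of them in 3 of 3 at day 8. The first 118 nt held no such stretch. The other footprint of this locus, which ends at 163994869, was called in no pair of days. Nor was the footprint at chr6:163868488-163868589 on the same strand.

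Plus-strand chr14:104152457-104152686 was covered over 225, 205 and 205 nt at day 0, 81, 105 and 107 at day 4, and 186, 143 and 162 at day 8. The 3 days did not overlap. Day 4 was lower than day 0 by -1.05 ± 0.13 (limma adjusted p = 0.000266), a call that ended with equal numbers of clusters (limma adjusted p = 0.0561). Here 91 nt from 104152587 to 104152677 were covered in every day 0 library and in none at day 4. Of these, 13 nt (104152587 to 104152599) were covered in 3 of 3 libraries at day 8, and 33 nt (104152645 to 104152677) in 0 of 3. On the minus strand, chr19:55544765-55544909 was covered over 97, 126 and 131 nt at day 0, 65, 67 and 73 at day 4, and 140, 145 and 144 at day 8. It was higher at day 8 than at day 4 by 0.97 ± 0.12 (limma adjusted p = 0.00197). The 66 nt from 55544841 to 55544906, on its 5′ side, were covered in 3 of 3 day 8 libraries and in 0 of 3 at day 4. At day 0 every library covered 15 nt (55544841 to 55544855) and 6 nt (55544875 to 55544880) of them, and no library covered the 11 nt from 55544896 to 55544906.

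**Figure D4:**
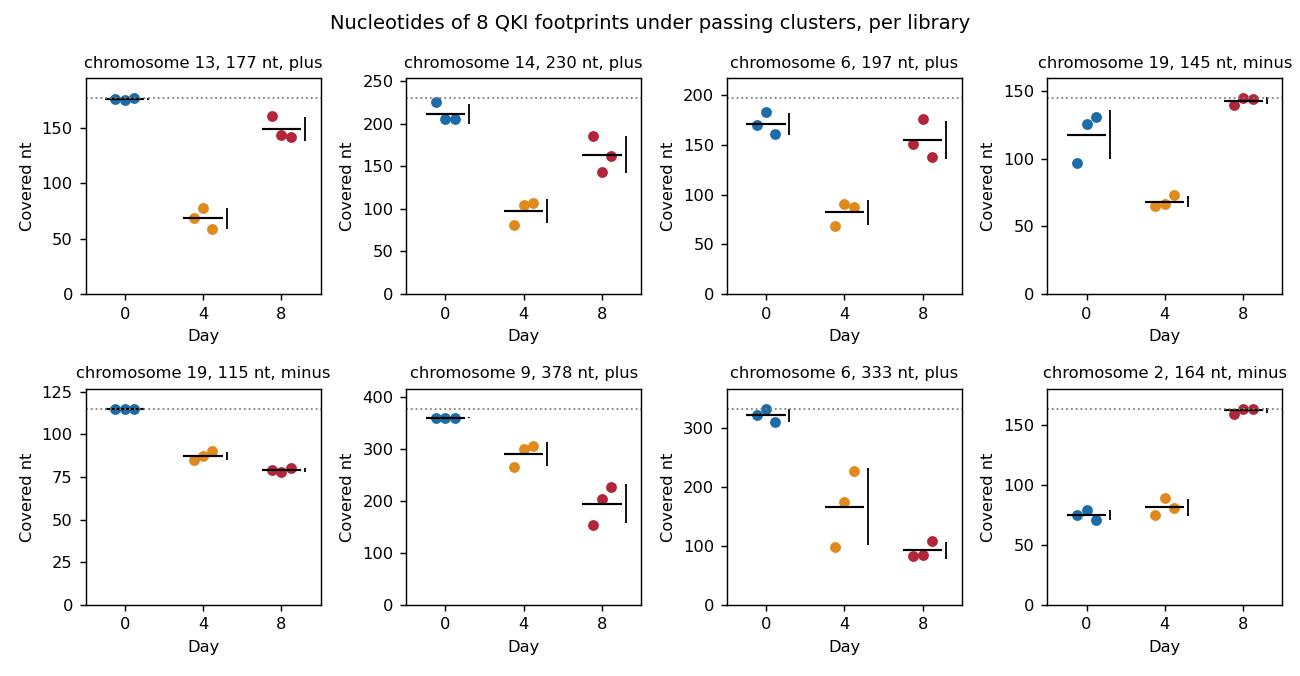
Nucleotides under passing clusters (y axis, from 0) by day for 8 footprints, with 1 point per library, a line at the mean and a bar of ± 1 SD (n = 3). The dotted line is the footprint's width, and the day 4 points lie lowest in the upper 4 panels.

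At other footprints cover was lower at day 8. On the minus strand, chr19:11342505-11342619 was covered over all 115 nt in each day 0 library, over 85, 87 and 90 nt at day 4, and over 79, 78 and 80 nt at day 8. The days did not overlap, and day 8 was lower than day 0 by -0.49 ± 0.07 (limma adjusted p = 0.000753). The nucleotides lost were at both ends, 15 nt at the 5′ end and 16 nt at the 3′ end. At chr9:103329486-103329863 on the plus strand, 361, 360 and 361 of 378 nt were covered at day 0, 265, 300 and 307 at day 4, and 154, 204 and 227 at day 8. The log2 difference of day 8 from day 0 was -0.87 ± 0.13 (limma adjusted p = 0.000998), and with equal numbers of clusters the call ended (limma adjusted p = 0.0989).

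The largest called decrease among the 401, over the 3 pairs of days, was at chr6:15279776-15280108 on the plus strand. Its libraries covered 322, 333 and 310 of 333 nt at day 0, 98, 174 and 228 at day 4, and 83, 85 and 109 at day 8. The day 4 and day 8 libraries overlapped, and both lay below day 0. Day 8 was lower than day 0 by -1.71 ± 0.27 (limma adjusted p = 0.00145), a call that ended for clusters of at least 8-fold (limma adjusted p = 0.239). From 15279984 to 15280097, 114 nt were covered in 3 of 3 day 0 libraries and in 0 of 3 at day 8. Minus-strand chr12:54782280-54782414 was the only one of the 401 called lower at day 8 than at day 4 in the fit described above. It was covered over 119, 135 and 108 nt at day 4 and 88, 78 and 68 at day 8 (log2 difference -0.57 ± 0.11, limma adjusted p = 0.0342). That call held under 7 of 18 alternatives (limma adjusted p = 0.0249 to 0.277 over them). It ended without any 1 of day 0 replicates 1 to 3, day 4 replicates 1 and 2 and day 8 replicates 2 and 3 (limma adjusted p = 0.0622 to 0.09).

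A few footprints gained cover. On the minus strand, chr2:220418785-220418948 was covered over 75, 79 and 71 of 164 nt at day 0, 75, 89 and 81 at day 4, and 160, 164 and 164 at day 8. Days 0 and 4 overlapped, and day 8 lay above both. The log2 difference was 1.02 ± 0.08 for day 8 against day 0 (limma adjusted p = 2.09e-05) and 0.92 ± 0.08 for day 8 against day 4 (limma adjusted p = 0.000355). The gain was a second stretch toward the 3′ end, 65 nt from 220418789 to 220418853 that were covered in 3 of 3 day 8 libraries and in 0 of 3 at day 0. Both calls ended for clusters of at least 8-fold (limma adjusted p = 0.0784 and 0.845), and with equal numbers of clusters the first difference was 4.11. Under that limit day 4 was also called above day 0, by 3.19 in place of 0.11 (limma adjusted p = 5.01e-08 in place of 0.306). The differences of 4.11 and 3.19 are the sizes reached when the limit leaves no cover here in any day 0 library. Their size then depends on the constant added to the nucleotide count before the logarithm, so they do not show a larger gain.

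**Figure D5:**
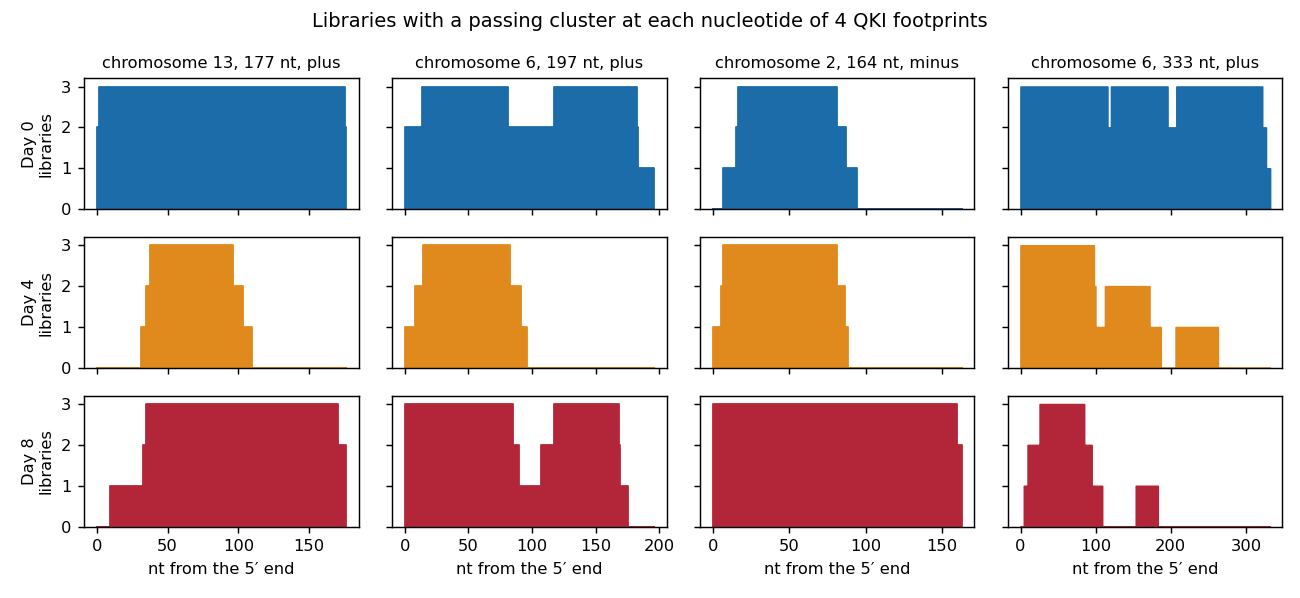
Number of libraries (0 to 3) with a passing cluster at each nucleotide of 4 footprints, by day, against the distance from the footprint's 5′ end (nt). The chromosome 13 footprint and the 197-nt chromosome 6 footprint (QKI) lack 66 and 65 nt toward the 3′ end at day 4, the chromosome 2 footprint gains 65 nt at day 8, and the 333-nt chromosome 6 footprint loses 114 nt by day 8.

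Plus-strand chr10:71667137-71667668, 1 of the 4 widest, was covered over 353, 403 and 304 of 532 nt at day 0, 343, 350 and 476 at day 4, and 532, 492 and 491 at day 8. Day 8 lay above the others, and its log2 difference from day 0 was 0.51 ± 0.15 (limma adjusted p = 0.0227). The call held under 11 of 18 alternatives (limma adjusted p = 0.00676 to 0.284). It ended with equal numbers of clusters, where the difference was 0.85, in the fit of footprints passing in 9 of 9 libraries (0.0522), with the replicate number as a block (0.0648) and without day 0 replicate 1 or 3 or day 8 replicate 1 or 2 (0.0529 to 0.0751). At chr8:17860442-17860668 on the plus strand the gain was small, from 170, 174 and 166 nt at day 0 to 207, 185 and 221 at day 4 and 206, 224 and 210 at day 8. The log2 differences from day 0 were 0.25 ± 0.06 and 0.31 ± 0.06 (limma adjusted p = 0.0153 and 0.00536). With equal numbers of clusters the differences were larger, 1.85 and 1.91, but neither was called (limma adjusted p = 0.473 and 0.375). Both calls also ended when only footprints passing in 9 of 9 libraries were fitted (0.117 and 0.0583), and the first without day 0 replicate 3 or day 4 replicate 1 (0.0533 and 0.0506).

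Minus-strand chr1:173836819-173836882 showed the highest log2 difference among those called higher at day 4, but it turned with the threshold. It was covered over 13, 13 and 16 of 64 nt at day 0, 56, 60 and 63 at day 4, and 63, 54 and 60 at day 8. The log2 differences from day 0 were 1.54 ± 0.15 and 1.52 ± 0.15 (limma adjusted p = 7.34e-05 and 7.49e-05). When every listed cluster was counted they were -0.03 and -0.04, so weaker clusters covered the rest at day 0. For clusters of at least 8-fold they were -0.02 and -0.42.

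Over all 401 footprints, stretches of at least 10 nt that were covered in 3 of 3 libraries of one day and in 0 of 3 of another were counted. Those covered at day 0 and not at day 4 occurred in 83 footprints (2962 nt in all, longest 107 nt). Those covered at day 0 and not at day 8 occurred in 97 (3163 nt, longest 120 nt). The opposite directions gave 3 footprints (74 nt) and 14 (360 nt). Between the later days, 25 footprints had stretches covered at day 8 and not at day 4 (693 nt), and 14 had the reverse (299 nt). Of the 106 stretches missing at day 4 relative to day 0, 13 reached the 5′ end of the footprint and 19 the 3′ end. The day 0 libraries also had the most passing clusters, as given above, and the part this played in these counts was not tested.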

How the data were processed

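QKI eCLIP clusters of 9 IP libraries (3 per day) were analysed. The 9 input libraries had no file of their own here. Per the file headers, the clusters are normalized to input. The build (hg19) and the tools cutadapt, STAR and SAMtools, with no version, come from the submitters' processing notes. The peak caller was not given in the sources used here. Each deposited line gives a log2 fold of IP over input, a −log10 p capped at 400, and a score of 1000 or 200, which was not used. The merged list of each day holds peaks of at least 4-fold that passed a 3-way IDR comparison, per the file headers.

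Starts were shifted to 1-based positions. Covered nucleotides were counted on the same strand with Python 3.11.15 and fitted with limma 3.58.1 (lmFit, eBayes with trend) in R 4.3.3, pseudocount 10 nt, adjusted p below 0.05. The fit was also run on simulated data with independent normal noise and no upper limit at the footprint's width. Real cover has that limit, so the simulation does not show how the fit behaves on it. The footprints named are the 10 strongest by the lowest fold (1 per locus), the weakest, the widest and those with the most peaks. Up to 3 per pair of days and direction by limma p were also named. chr10:71667137-71667668 was named both as 1 of the widest and for its call, and the MIAT footprints also for their locus. The footprints and these choices were made with earlier results of these data known. No genome or annotation of hg19 was used, so motifs, introns, exons and gene lists were not analysed here, and no sequence is shown. MIAT, U3 and QKI are named from the known positions of these genes and other footprints by position alone.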

Additional observations from a re-analysis of the deposited data

How the results depend on the processing

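The number of footprints present at all 3 days was 421 when touching peaks were not joined, 380 when peaks within 50 nt were joined, 370 for peaks of at least 8-fold and 399 when a shared nucleotide was required. The number passing in every library was 324 for clusters of at least 8-fold, 272 when clusters had to cover at least 50% of the footprint, and 373 to 379 when 1 library was left out. For day 4 against day 0, counts of footprints covered more were 1 with every listed cluster, 1 for clusters of at least 8-fold and 24 with equal numbers of clusters. Those covered less were 20 with equal numbers and 34 when only the 549 footprints passing in 9 of 9 libraries were fitted. For day 8 against day 0, counts of footprints covered more were 26 with equal numbers and 7 with robust eBayes, and those covered less were 27 with equal numbers and 38 in the 9-of-9 fit. For day 8 against day 4, 0 were covered less with every listed cluster and 0 in the 9-of-9 fit (15 and 21 at an unadjusted limma p under 0.05). Leaving out 1 library gave 1 to 3 higher and 30 to 77 lower for day 4 against day 0, 4 to 6 and 39 to 84 for day 8 against day 0, and 4 to 15 and 0 to 7 for day 8 against day 4. The cause of these shifts was not tested.

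Same-numbered libraries did not deviate together. Their 9 correlations ran from -0.089 to 0.121, with 1 above 0.1. These used only cover at footprints passing in 9 of 9 libraries, so they cannot show whether same-numbered libraries shared a culture. Pairing remains unknown. With the replicate number as a block, 4 footprints were covered more at day 8 than at day 4 in place of 8, and the other counts moved by less than 1.5 times. Of 270 values of named footprints under an alternative, 244 kept direction and call, 22 lost the call and 4 turned. All 4 were of chr1:173836819-173836882. For day 4 against day 0 its log2 difference was -0.027 with every listed cluster and -0.020 for clusters of at least 8-fold, and for day 8 against day 0 it was -0.042 and -0.42. Read depth was unknown. The planned motif and annotation alternatives were not run.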
